A study of Homo sapiens with 29 samples.

Results

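Global-genome nucleotide excision repair was described here by 9 genes: DDB1, DDB2, XPC, RAD23B, CETN2, XPA, ERCC1, ERCC4 and ERCC5. All probe sets whose gene symbol in the array annotation was one of these names were taken, 15 of the 54613 non-control probe sets, for 9 of the 19775 genes named on the array. Of these, 13 passed the level minimum, a mean log2 value of 5.74 or an intensity of 37.4, and every gene kept at least 1 of them. The RAD23B probe set 214422_at, with group means of 6.62 to 9.76, and the ERCC4 probe set 210158_at, with group means of 9.45 to 12.0, lay under the minimum and were not tested. The rule itself uses gene names and no measured value, but the genes were chosen with earlier results of these data known.

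The samples were cultures of BEAS-2B, human cells of the bronchial epithelium made immortal by an adenovirus and SV40 hybrid, so every value comes from 1 line. The cells were exposed for 24 h to N-OH-PhIP, the hydroxylated and DNA-reactive form of PhIP, which arises in fried meat and in smoke from tobacco, in order to find a transcriptional dose threshold. Doses of 0.1, 1, 5, 10, 50, 100, 500 and 1000 nM had 3 arrays each, the dose of 0.5 nM had 2, and the vehicle group had 3. All 29 arrays, vehicle included, carried DMSO at 1%, and N-OH-PhIP was the only other agent, in the treated groups. By the design text the doses end at 0.5 nM, but the titles name a dose of 0.1 nM, and these names are used. The SV40 large T antigen, known to bind p53, is a feature of this line that every group shares.

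Nucleotide excision repair removes bulky, helix-distorting DNA lesions by cutting out a short single strand around them. In its global-genome branch the DDB1 and DDB2 dimer and the XPC complex find the lesion, the helicases of TFIIH open the strands and XPA checks the damage. The nucleases ERCC5 (XPG) and ERCC1-ERCC4 (XPF) then cut on either side, and polymerases and ligases fill the gap. In human cells DDB2 and XPC are known as genes induced by p53.

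Levels are the authors' normalized intensities, in arbitrary linear units, and changes are differences of log2(intensity + 16) from limma with Benjamini-Hochberg adjustment over 27307 probe sets, called at an adjusted p under 0.05. Intensities of different probe sets are not compared with each other. Array medians ran from 35.8 to 38.4 and correlations within groups from 0.980 to 0.998. All 7 of the epithelial markers on the array were above the minimum, with summed levels of 23498 to 24937 at 1000 nM and 24436 to 27586 at 500 nM, against 20420 to 21239 in DMSO. None of the 6 leukocyte or 6 endothelial markers on the array was above it, and of the 7 fibroblast markers only COL1A1 was, with summed levels of 836 to 923 at 1000 nM and 1020 to 1180 at 500 nM, against 656 to 740 in DMSO. The 3′ to 5′ log2 ratio of the actin control probe sets, a measure of RNA integrity and amplification, averaged 1.52 at 1000 nM and 1.67 at 500 nM, against 2.21 in DMSO. That of the GAPDH control probe sets averaged 0.171 at 1000 nM and 0.196 at 500 nM, against 0.145 in DMSO. The covariate used below was the mean of both ratios in each array. It averaged 0.844 at 1000 nM and 0.933 at 500 nM, against 1.18 in DMSO. The actin ratios of the top doses, at most 1.90, lay below those of DMSO, at least 2.13, so covariate and dose are confounded. The part of RNA integrity and amplification in the changes was not tested beyond a fit with this covariate. Its values stand beside the changes against DMSO that gained or lost a call with it. Values are relative to the rest of each array, and fewer cells expressing a gene and less RNA per cell cannot be told apart.

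Among the members, DDB2 and XPC had the largest changes from DMSO at 100 and 500 nM. Both were higher than DMSO at 100 nM, reached their highest level at 500 nM, and were lower at 1000 nM than at 500 nM. DDB1 and CETN2 were higher at both top doses by smaller amounts, RAD23B was lower at both, and XPA was lower at 1000 nM. Of the nuclease genes only ERCC1 was called against DMSO, on 1 of its 3 probe sets at 1000 nM.

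DDB2 encodes the subunit that binds ultraviolet and other distorting lesions. The annotated DDB2 promoter window is shown first because, of the 14 promoter windows of the 9 genes, it alone matched the consensus half-site of p53. The XPC window is shown for comparison, since its probe set had a similar course over dose. Both windows are from RefSeq, build GRCh38.p14, and span 250 bases before to 50 bases after an annotated start. In the DDB2 window, at chr11:47214724-47215023 on the plus strand, capitals mark both half-sites, and in the XPC window, at chr3:14178552-14178851 on the minus strand, capitals mark GGGCGG, the GC box letters.
DDB2: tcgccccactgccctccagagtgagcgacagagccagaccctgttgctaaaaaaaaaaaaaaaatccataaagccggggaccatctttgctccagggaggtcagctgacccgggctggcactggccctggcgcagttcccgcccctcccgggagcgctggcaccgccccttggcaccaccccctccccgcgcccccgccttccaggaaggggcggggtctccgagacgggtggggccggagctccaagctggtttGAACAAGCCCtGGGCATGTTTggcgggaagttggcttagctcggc
XPC: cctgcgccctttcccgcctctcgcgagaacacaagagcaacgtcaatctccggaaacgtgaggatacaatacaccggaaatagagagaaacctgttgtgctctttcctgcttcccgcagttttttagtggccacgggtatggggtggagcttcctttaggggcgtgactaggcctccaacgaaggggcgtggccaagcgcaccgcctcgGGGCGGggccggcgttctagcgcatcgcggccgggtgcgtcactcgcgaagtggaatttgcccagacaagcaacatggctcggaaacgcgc
The DDB2 half-sites, GAACAAGCCC and GGGCATGTTT, lie at bases 6 to 15 and 17 to 26 after the start, 1 base apart. Searched on both strands, the half-site by its 10-letter consensus was in 6.63% of 35116 windows of this length, and a pair no more than 13 bases apart was in 0.0285%. A second DDB2 window, at chr11:47214204-47214503, and the XPC window held no half-site. GGGCGG was in 45% of all windows and in 8 of the 14 of the members. The DDB2 window shown also held 3 matches to GGGCGG, which are left in small letters. The matches describe letters only, and binding was not measured.

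DDB2 (203409_at) stood at 1183, 1298 and 1392 in DMSO. It read 1508, 1523 and 1432 at 0.1 nM, 1369 and 1437 at 0.5 nM, 1614, 1727 and 1688 at 1 nM, 1608, 1438 and 1502 at 5 nM, and 1337, 1461 and 1360 at 10 nM. At 50 nM it read 1528, 1598 and 1920, at 100 nM 2139, 2189 and 1990, at 500 nM 3218, 3131 and 2752, and at 1000 nM 1519, 1570 and 1428. Every array at 500 nM lay above every other array, and every array at 100 nM lay above all arrays of the remaining doses and DMSO. The 1000 nM arrays lay just above the DMSO arrays and within the range of the doses of 0.1 to 50 nM. In the order of group means (500, 100, 50, 1, 5, 1000, 0.1, 0.5 and 10 nM, then DMSO) neighbouring groups overlapped, except 500 and 100 nM, 100 and 50 nM, and 1 and 5 nM.

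DDB2 averaged 2106 ± 104 at 100 nM and 3034 ± 248 at 500 nM, against 1291 ± 105 in DMSO (SD, n = 3 each). The log2 change was 0.70 (SE 0.07, adjusted p = 9.49e-07) at 100 nM and 1.22 (SE 0.07, adjusted p = 5.38e-13) at 500 nM. At 1000 nM the mean was 1506 ± 71.7 (SD, n = 3) and the log2 change 0.22 (SE 0.07, adjusted p = 0.0113), which lost its call without DMSO replicate 1 (0.16, adjusted p = 0.0876) or 1000 nM replicate 2 (0.19, adjusted p = 0.0524). With the 3′ to 5′ covariate the change at 1000 nM was 0.35 (adjusted p = 0.0558). The 1000 nM arrays were below the 500 nM arrays by a log2 difference of -1.0 (SE 0.07, adjusted p = 1.7e-10), and 0.436% of the tested probe sets had a difference as low or lower. The changes at 100 and 500 nM and the fall between the top doses kept their calls under all 17 alternatives tried for each.

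Below 100 nM DDB2 was the only member called. At 1 nM, where 0.78% of all tested probe sets were called, it rose by 0.38 (SE 0.07, adjusted p = 0.0116), and at 50 nM, where 0.264% were called, by 0.37 (SE 0.07, adjusted p = 0.024). Neither call was firm. At 1 nM it was lost without DMSO replicate 1 (adjusted p = 0.0693) or 2 (0.069), without 1 nM replicate 2 (0.0581) or 3 (0.0598), and with the covariate (0.17). At 50 nM it was lost without DMSO replicate 1 (adjusted p = 0.145) or 2 (0.116), without 50 nM replicate 2 (0.0725) or 3 (0.198), without a mean-variance trend (0.0521) and in a fit of those groups alone (0.091). The doses between them gave log2 changes of 0.23 at 5 nM (adjusted p = 0.116) and 0.10 at 10 nM (adjusted p = 0.576), so the calls at low doses did not form an unbroken series. At 1 nM the actin 3′ to 5′ ratio averaged 2.52, above 2.21 in DMSO.

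XPC encodes the protein that binds the strand opposite a lesion and recruits TFIIH. Its probe set (209375_at) stood at 263, 276 and 316 in DMSO, at 423, 404 and 352 at 100 nM, at 766, 785 and 712 at 500 nM and at 454, 519 and 423 at 1000 nM. The 20 arrays of 0.1 to 100 nM ran from 262 to 423. Group means were higher at each successive dose from DMSO to 500 nM, although neighbouring doses up to 50 nM overlapped, and the 100 nM and 1000 nM arrays met at their edges. Every array at 500 nM lay above all arrays of the other groups.

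The log2 change of XPC was 0.23 (adjusted p = 0.446) at 50 nM, 0.44 (SE 0.09, adjusted p = 0.00603) at 100 nM, 1.36 (SE 0.09, adjusted p = 6.03e-12) at 500 nM and 0.68 (SE 0.09, adjusted p = 6.25e-07) at 1000 nM. XPC thus kept 163% of the DMSO level at 1000 nM and 265% at 500 nM, and DDB2 117% and 235%. The fall between the top doses was -0.68 (SE 0.09, adjusted p = 1.84e-06), with 2.59% of tested probe sets as low or lower. All XPC calls at 100, 500 and 1000 nM held under the alternatives tried, with the adjusted p at 100 nM reaching 0.0478.

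**Figure D1:**
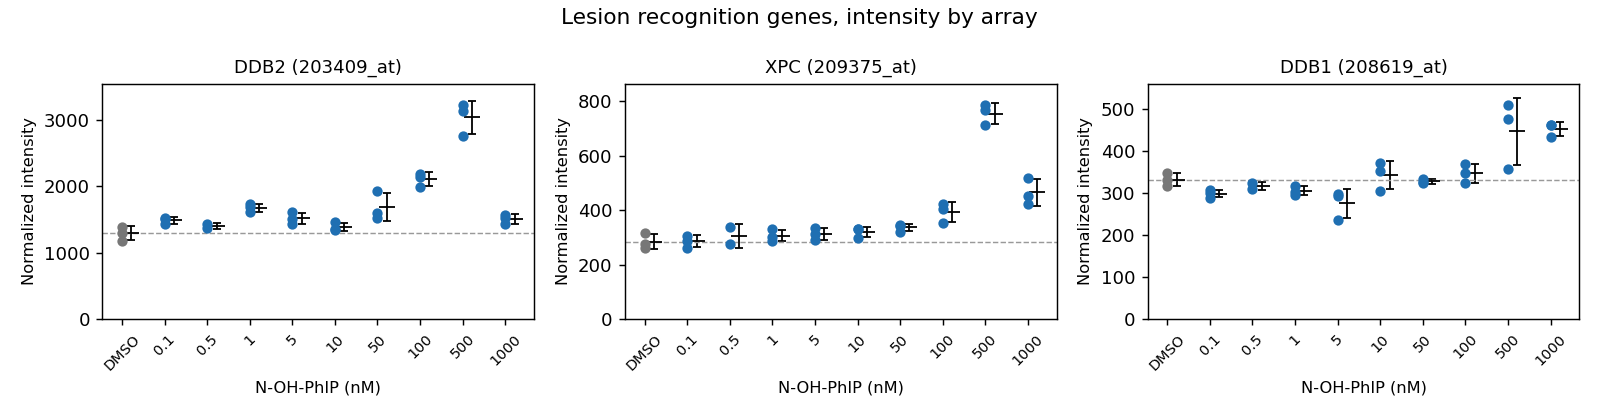
Intensity of DDB2, XPC and DDB1 (vertical axis, linear from 0) at each dose (horizontal axis, DMSO at the left), with 1 point per array, bars for mean ± SD and a dashed line for the DMSO mean. DDB2 and XPC peak at 500 nM with means of 3034 and 754 and are lower at 1000 nM, while DDB1 is about level at the top doses, with means of 452 at 1000 nM and 446 at 500 nM.

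DDB1 is the adaptor through which DDB2 joins the CUL4 ubiquitin ligase. Its probe set (208619_at) read 462, 432 and 461 at 1000 nM and 475, 508 and 357 at 500 nM, against 316, 347 and 330 in DMSO. Every array at both top doses lay above every DMSO array, although 500 nM replicate 3 lay within the 235 to 371 of the doses of 0.1 to 100 nM. The log2 change was 0.43 (SE 0.10, adjusted p = 0.000536) at 1000 nM and 0.40 (SE 0.10, adjusted p = 0.00171) at 500 nM. With the covariate these were 0.85 and 0.70, and in a fit of the 500 nM and DMSO arrays alone the call at 500 nM was lost (adjusted p = 0.0648). The difference of 1000 nM from 500 nM was 0.03 (95% interval -0.16 to 0.23, adjusted p = 0.829), beside -1.0 for its partner DDB2, and the 2 differences were not tested against each other. Without 500 nM replicate 3 it was -0.12 (adjusted p = 0.299).

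RAD23B and CETN2 encode the partners that stabilise XPC. RAD23B was lower at both top doses on each of its 3 tested probe sets. Probe set 223598_at read 1237, 1135 and 1236 at 1000 nM and 1504, 1456 and 1800 at 500 nM, against 1883, 1984 and 1881 in DMSO. Probe set 201223_s_at read 3942, 3837 and 3945 at 1000 nM and 4150, 4187 and 4410 at 500 nM, against 5253, 4798 and 5074 in DMSO. Probe set 201222_s_at read 2585, 2601 and 2792 at 1000 nM and 2756, 2518 and 2993 at 500 nM, against 3679, 3409 and 3357 in DMSO. On all 3 probe sets the arrays of both top doses lay below every DMSO array, while on 201222_s_at the top doses overlapped each other.

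The probe sets of RAD23B gave the same direction and different sizes. The log2 change at 1000 nM was -0.67 (SE 0.06, adjusted p = 2.79e-10) on 223598_at, -0.37 (SE 0.04, adjusted p = 3.73e-08) on 201223_s_at and -0.39 (SE 0.05, adjusted p = 8.11e-07) on 201222_s_at. At 500 nM the values were -0.28 (adjusted p = 0.000367), -0.25 (adjusted p = 3.14e-05) and -0.34 (adjusted p = 1.15e-05). The 3 probe sets averaged within each array gave -0.47 (adjusted p = 6.74e-10) at 1000 nM and -0.29 (adjusted p = 4.49e-06) at 500 nM. All of these calls were kept under the alternatives tried. Between the top doses the difference was -0.39 (adjusted p = 6.77e-06) on 223598_at, -0.12 (adjusted p = 0.0236, lost in 7 of 17 alternatives) on 201223_s_at and -0.05 (adjusted p = 0.499) on 201222_s_at. At 0.1 to 100 nM the arrays of 223598_at ran from 1853 to 2115, all above those at 500 and 1000 nM.

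Of the RAD23B windows, that at chr9:107283029-107283328 on the plus strand (GRCh38.p14) is shown because it had 5 matches to GGGCGG, and none to the half-site. The RAD23B windows at chr9:107283858-107284157 and chr9:107284519-107284818 held no match to either and are not shown. Capitals mark GGGCGG on either strand, and some matches overlap.
RAD23B: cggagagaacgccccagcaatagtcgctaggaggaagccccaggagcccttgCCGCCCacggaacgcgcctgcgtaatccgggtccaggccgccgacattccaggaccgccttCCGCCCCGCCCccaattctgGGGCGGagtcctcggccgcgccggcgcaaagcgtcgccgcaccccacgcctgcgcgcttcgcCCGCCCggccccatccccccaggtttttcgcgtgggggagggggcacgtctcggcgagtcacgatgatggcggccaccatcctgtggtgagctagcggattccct
This stands beside the DDB2 and XPC windows above, and no measurement here ties its letters to the lower level.

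CETN2, centrin 2, read 3654, 4053 and 3817 at 1000 nM and 3622, 3789 and 3755 at 500 nM, against 3184, 3372 and 3504 in DMSO. The arrays of both top doses lay above every DMSO array and overlapped each other. The replicates were close: the residual SD of CETN2 was at the 5.66th percentile of tested probe sets. The log2 change was 0.19 (SE 0.05, adjusted p = 0.000607) at 1000 nM and 0.15 (SE 0.05, adjusted p = 0.00838) at 500 nM. Both calls were lost with the covariate (0.11, adjusted p = 0.331, and 0.09, adjusted p = 0.348). The call at 500 nM was lost without DMSO replicate 1 (adjusted p = 0.0694) and in a fit of those groups alone (0.0746).

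XPA, a scaffold that checks the damage and holds the incision complex together, read 864, 893 and 826 at 1000 nM, below every other array of the series. At 500 nM it read 1210, 1563 and 1025, against 1128, 1119 and 1112 in DMSO, and the 500 nM arrays were far apart. The 20 arrays of 0.1 to 100 nM ran from 1078 to 1387. The log2 change was -0.37 (SE 0.09, adjusted p = 0.00105) at 1000 nM and 0.15 (SE 0.09, adjusted p = 0.18) at 500 nM. The 1000 nM arrays were lower than the 500 nM arrays by a log2 difference of -0.53 (SE 0.09, adjusted p = 4.89e-05). Without 500 nM replicate 3, the array with the lowest XPA level and the lowest mean correlation (0.985) at that dose, the change at 500 nM was 0.29 (adjusted p = 0.0044), and without replicate 2 it was -0.01 (adjusted p = 0.945). With the covariate the change at 1000 nM was 0.03 (adjusted p = 0.906) and that at 500 nM 0.45 (adjusted p = 0.00791). The lower level at 1000 nM was thus not kept with the covariate, which is confounded with dose.

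**Figure D2:**
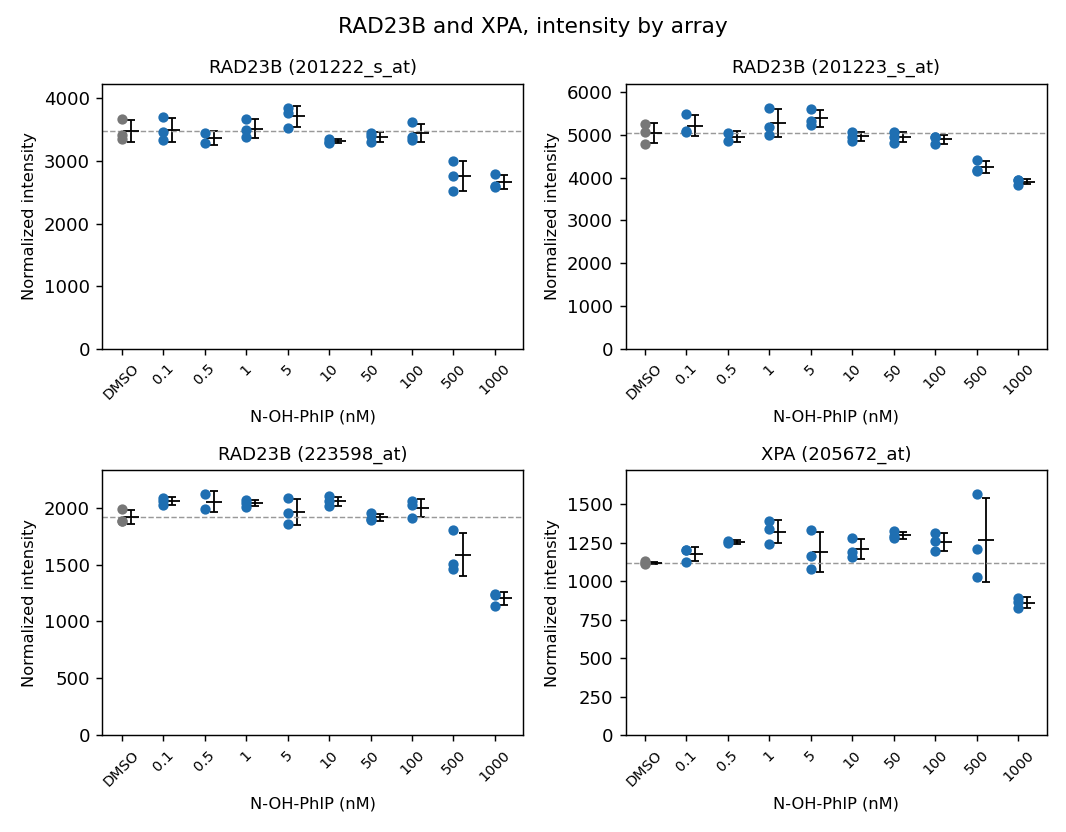
Intensity of RAD23B on its 3 tested probe sets and of XPA (vertical axes, linear from 0) by dose (horizontal axis, DMSO at the left), with 1 point per array, bars for mean ± SD and a dashed line for the DMSO mean. RAD23B is below the dashed line at 500 and 1000 nM on every probe set, and the XPA points at 1000 nM, 826 to 893, are under all others.

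The incision genes gave 1 call against DMSO over the 9 doses. ERCC1, the partner of ERCC4 in the nuclease that cuts on the 5′ side, had 3 tested probe sets. Its probe set 203719_at read 1050, 1075 and 1025 at 1000 nM and 1346, 1217 and 940 at 500 nM, against 1013, 928 and 1096 in DMSO, and the groups overlapped. The log2 change was 0.05 (95% interval -0.14 to 0.25, adjusted p = 0.655) at 1000 nM and 0.19 (adjusted p = 0.116) at 500 nM. Probe set 203720_s_at gave 0.04 (adjusted p = 0.744) and 0.19 (adjusted p = 0.0854). Leaving out 500 nM replicate 3 turned the values at 500 nM into calls, at 0.34 (adjusted p = 0.00257) and 0.32 (adjusted p = 0.00156). With the covariate 203719_at was called at 500 nM, at 0.39 (adjusted p = 0.0419).

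Probe set 228131_at of ERCC1 was called at 1000 nM, where it read 2496, 3016 and 2697, against 2376, 2467 and 2575 in DMSO. The groups overlapped, the log2 change was 0.14 (SE 0.06, adjusted p = 0.0321), and the call was lost in 8 of 18 alternatives, including without 1000 nM replicate 2 (0.07, adjusted p = 0.298) and with the covariate (0.16, adjusted p = 0.263). Averaged over its 3 probe sets ERCC1 gave 0.08 (adjusted p = 0.327).

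ERCC4, the nuclease subunit, had the highest residual SD of the 13 tested probe sets, at the 76.6th percentile of all tested. Its probe set 235215_at read 118, 120 and 147 at 1000 nM, against 123, 163 and 167 in DMSO. The change was -0.21 (95% interval -0.46 to 0.04, adjusted p = 0.155) at 1000 nM, and -0.34 (adjusted p = 0.0322) without DMSO replicate 1. At 5 nM its arrays, 200, 182 and 218, were all above the DMSO arrays, with a log2 change of 0.38 (95% interval 0.13 to 0.62) that did not pass the test (adjusted p = 0.14). Over the 10 groups the F test called ERCC4 (adjusted p = 0.0204).

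ERCC5, the nuclease that cuts on the 3′ side, read 1307, 1407 and 1226 at 1000 nM and 1484, 1626 and 1424 at 500 nM, against 1282, 1388 and 1502 in DMSO. Against DMSO the change was -0.08 (95% interval -0.21 to 0.05, adjusted p = 0.297) at 1000 nM and 0.12 (adjusted p = 0.141) at 500 nM. Between the top doses the difference was -0.20 (SE 0.07, adjusted p = 0.0152), a call lost without 500 nM replicate 2 (adjusted p = 0.0877) or 1000 nM replicate 3 (0.096) and in a fit of those groups alone (0.135).

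**Figure D3:**
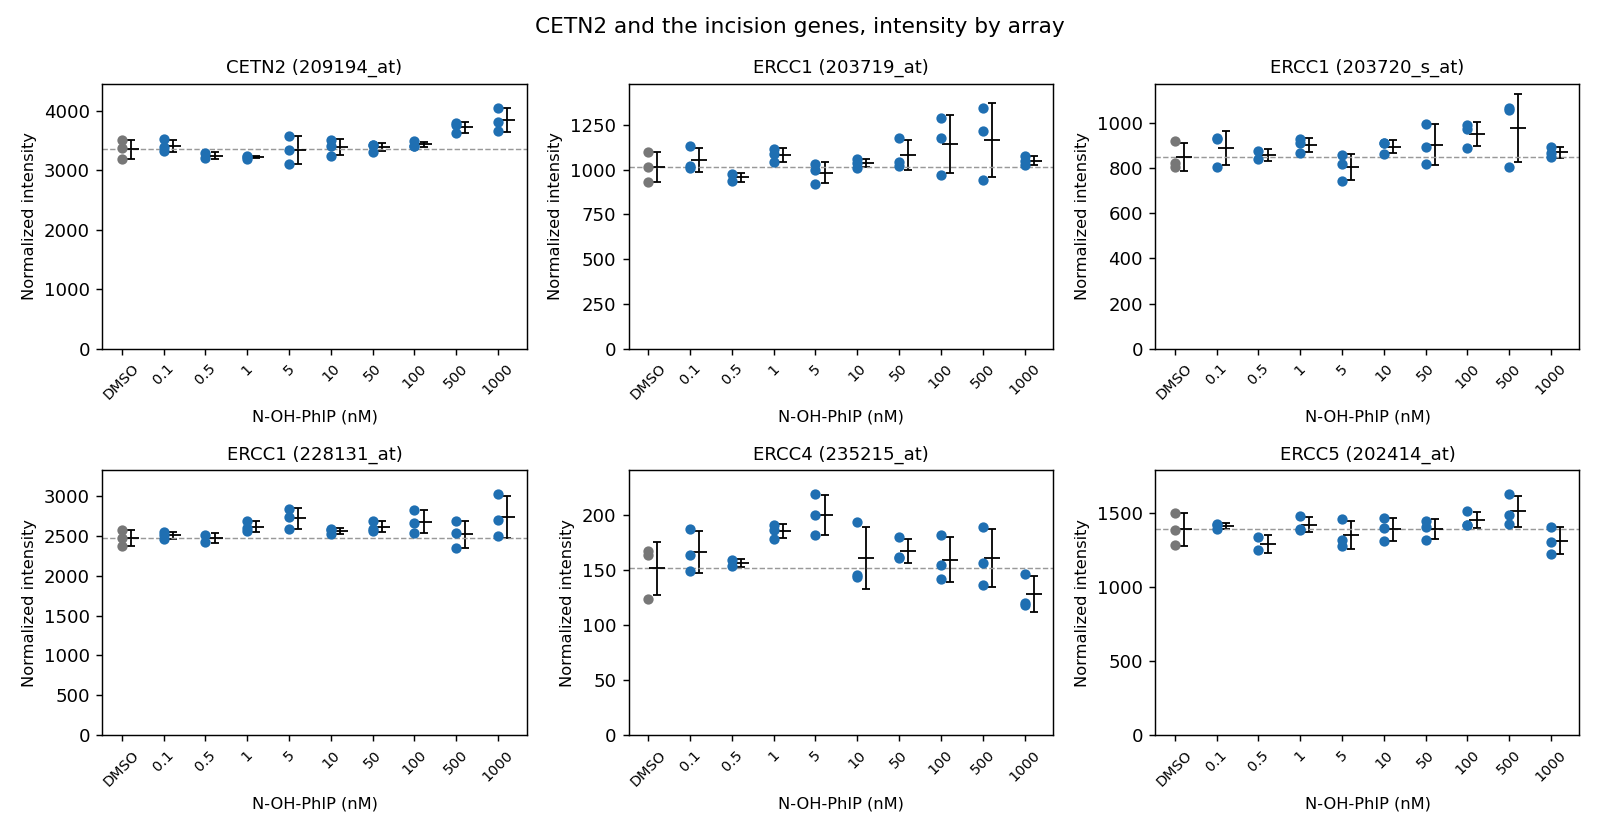
Intensity of CETN2, ERCC1, ERCC4 and ERCC5 (vertical axes, linear from 0) by dose (horizontal axis, DMSO at the left), with 1 point per array, bars for mean ± SD and a dashed line for the DMSO mean. The CETN2 arrays at 1000 nM, 3654 to 4053, are all above those of DMSO, while most ERCC points scatter about the dashed line.

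Counted over the 13 tested probe sets, 2 rose and 0 fell at 100 nM (limma, 0 lower at an unadjusted p under 0.05), where 2.9% of all tested probe sets were called, 1.37% higher and 1.53% lower. At 500 nM 4 rose and 3 fell, where 45.4% of all were called, 23.1% higher and 22.3% lower. At 1000 nM 5 rose and 4 fell, where 59.9% were called, 28.9% higher and 31% lower. In genes, with the probe set of highest level, 4 rose and 1 fell of 9 at 500 nM, and 5 rose and 2 fell at 1000 nM. Over all 12174 genes 25.2% rose and 24.8% fell at 500 nM, and 27.3% rose and 35.8% fell at 1000 nM, so being called at these doses does not set the members apart. The median log2 change of the 13 was 0.07 at 100 nM, 0.15 at 500 nM and 0.04 at 1000 nM, against 0.01, 0.01 and -0.01 over all tested probe sets. At the doses of 0.1, 0.5, 5 and 10 nM limma called no member, and 0.597%, 0.0439%, 1.11% and 0.242% of all tested probe sets. These shares are at the adjusted p. At an unadjusted p under 0.05 the members numbered 1, 0, 5 and 0. The share over all probe sets at that threshold was not computed, so these counts cannot be set against the shares above. All comparisons with DMSO share its 3 arrays.

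The members whose arrays did not overlap with DMSO numbered 8 of 13 at 1000 nM, where 65.1% of tested probe sets did not overlap, and 7 at 500 nM, where 43.7% did not. Between the top doses 0 members rose and 6 fell, in 5 genes (limma), with 43.3% of all called, 17.7% higher and 25.6% lower. At an unadjusted p under 0.05 1 was higher and 7 were lower. The share over all probe sets at that unadjusted threshold was not computed. The genes called lower at 1000 nM than at 500 nM were DDB2, XPC, RAD23B, XPA and ERCC5. DDB1, CETN2, ERCC1 and ERCC4 gave no call in this comparison.

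**Figure D4:**
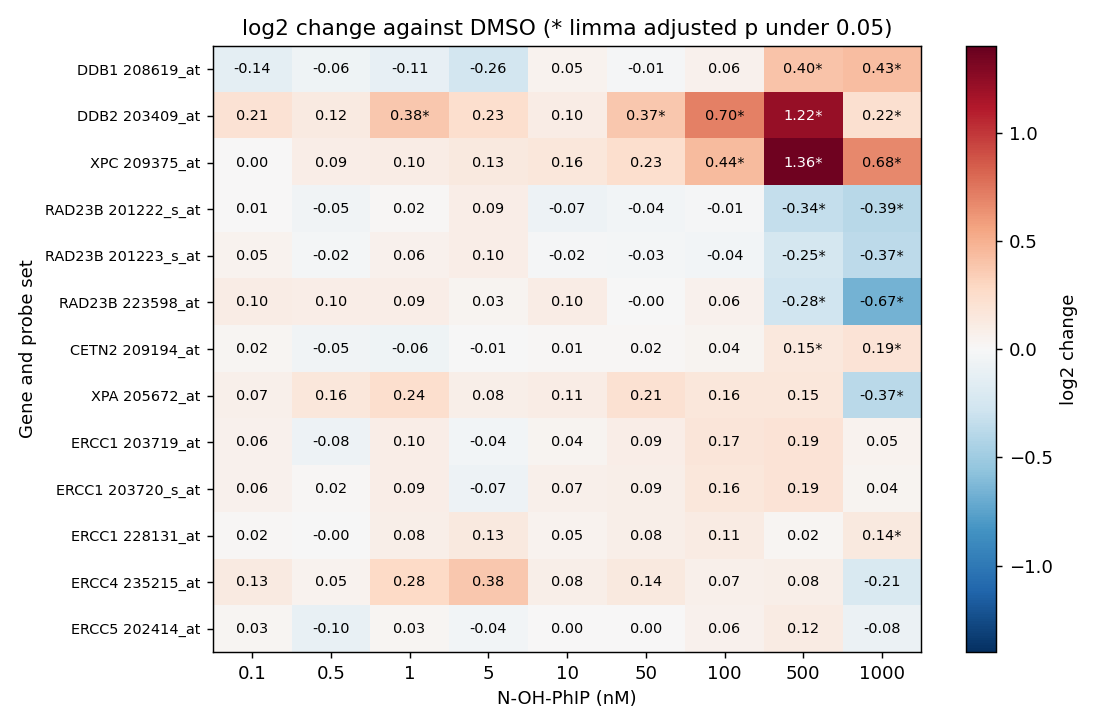
Log2 change against DMSO (colour and printed value) for the 13 tested probe sets (rows) at the 9 doses (columns, low to high), with an asterisk where the adjusted p is under 0.05. Colour is faint up to 50 nM, DDB2 and XPC stand out at 100 and 500 nM with 0.70 and 0.44 and with 1.22 and 1.36, and RAD23B is negative at both top doses.

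**Figure D5:**
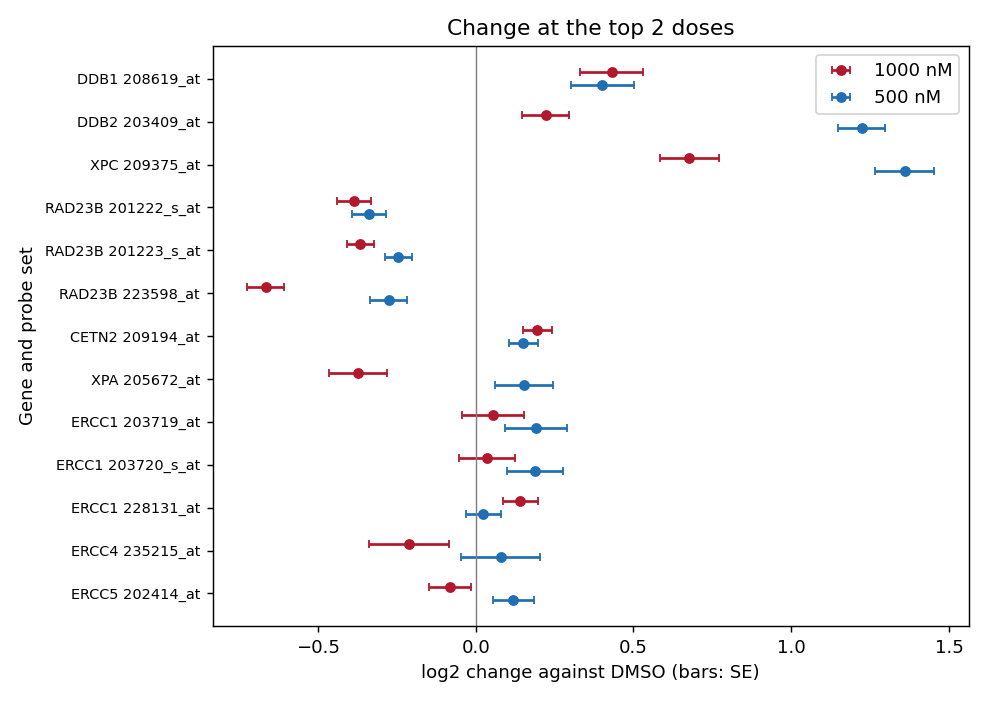
Log2 change against DMSO with its SE (horizontal axis) for each tested probe set (rows) at 1000 nM (red) and 500 nM (blue). The points for DDB2 lie at 0.22 and 1.22 and those for XPC at 0.68 and 1.36, whereas those for DDB1 lie at 0.43 and 0.40.

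A dose slope, fitted on log10 dose in 26 treated arrays, called 8 of the 13 probe sets, 4 rising and 4 falling, with 59.5% of all tested probe sets called, 30.6% rising and 28.9% falling. XPC rose by 0.25 (SE 0.04, adjusted p = 1.76e-05) per 10-fold dose, DDB1 and DDB2 by 0.14 each (adjusted p = 5.38e-05 and 0.00764) and CETN2 by 0.05 (adjusted p = 4e-04). RAD23B fell on its 3 probe sets, with slopes of -0.14, -0.09 and -0.09, and ERCC4 had -0.07 (adjusted p = 0.0459), a call lost in 20 of 37 alternatives. Without the doses of 500 and 1000 nM only XPC kept a call (0.12, adjusted p = 0.00848), and DDB2 had 0.11 (adjusted p = 0.0505). With the covariate no slope was called. The DDB2 peak lies inside the dose range, and a slope linear in dose gave 0.26 per 1000 nM (adjusted p = 0.224). The F test over the 10 groups called 9 of 13, all but the 3 of ERCC1 and ERCC5, against 68.3% of tested probe sets, with adjusted p of 2.8e-12 for DDB2 and 1.44e-11 for XPC.

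The genes whose course over the 9 doses was most like that of DDB2, by the root mean square difference of log2 change among 12165 other genes, were NINJ1 (0.114), IKBIP (0.120) and MR1 (0.126). Those most like XPC were COL9A3 (0.0600), AEN (0.0605) and TNFRSF10A (0.0683). For COL9A3 the log2 change was 0.48 at 100 nM, 1.22 at 500 nM and 0.69 at 1000 nM. For AEN it was 0.51, 1.41 and 0.75, beside 0.44, 1.36 and 0.68 for XPC. These genes were picked for their likeness, so the closeness of their values follows from the search. Another 12 tested genes known as p53 targets were counted, a list chosen with earlier results of these data known. Of these, 9 rose and 0 fell at 100 nM, 12 rose at 500 nM (median 0.96) and 11 rose at 1000 nM (median 0.76). Between the top doses 0 rose and 9 fell (median -0.32). Over all 12174 genes 1.85% rose and 2.04% fell at 100 nM, and 25.2% rose at 500 nM and 27.3% at 1000 nM. Between the top doses 1872 of the 12174 rose and 3869 fell (median -0.07).

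Of 46 other genes of the pathway, 43 were tested, each on its tested probe set of highest mean level. Some have several probe sets, whose other values are not given. Among the genes named below, LIG3 has 6, ERCC8 and UVSSA have 4 each, and GTF2H1, RPA1 and POLK have 3 each. In these 43 limma called 0 at 50 and 100 nM. At 1 nM, where DDB2 was also called, 1 rose and 1 fell, and at 5 nM 1 fell. At an unadjusted p under 0.05 4 were higher and 1 lower at 50 nM, and 4 were higher and 0 lower at 100 nM. The share over all genes at that threshold was not computed, so these counts have no background beside them. At 500 nM 9 rose and 12 fell (median log2 change -0.07), and at 1000 nM 10 rose and 18 fell (median -0.05). Over all 12174 genes 25.2% rose and 24.8% fell at 500 nM, and 27.3% rose and 35.8% fell at 1000 nM. The counts of the separate lists that follow stand beside the same shares. TFIIH and RPA, which open and coat the strands, had 3 of 12 higher and 5 lower at 1000 nM. MNAT1, a subunit of the TFIIH kinase module, averaged 559 at 1000 nM, against 1265 in DMSO, a log2 change of -1.16 (SE 0.05, adjusted p = 4.51e-16). No member fell as far against DMSO. GTF2H1, a core TFIIH subunit, changed by -0.78 (adjusted p = 3.05e-12), RPA2 by 0.22 (adjusted p = 0.00216) and RPA1 by 0.20 (adjusted p = 0.000455).

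The genes that fill and seal the gap had 4 of 18 higher and 8 lower at 1000 nM, where 27.3% of all genes rose and 35.8% fell. LIG3, a DNA ligase, changed by -0.68 (adjusted p = 8.23e-11) and POLK, a polymerase, by -0.63 (adjusted p = 1e-05). PCNA, the sliding clamp, changed by 0.33 (adjusted p = 2.37e-06) and POLE, a replicative polymerase, by 0.31 (adjusted p = 0.0134). Among 7 tested ligase and recognition partners, 1 rose and 2 fell: USP11, a deubiquitinase, changed by 0.55 (adjusted p = 0.000145), CETN3 by -0.42 (adjusted p = 3.09e-06) and COPS5, of the COP9 signalosome, by -0.11 (adjusted p = 0.0159). Of 6 tested genes of the transcription-coupled branch 2 rose and 3 fell. In that branch XAB2 changed by 0.69 (adjusted p = 1.94e-06), ELOF1 by 0.35 (adjusted p = 0.00363), ERCC8 (CSA) by -0.60 (adjusted p = 1.9e-08) and UVSSA by -0.50 (adjusted p = 3.72e-06).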

How the data were processed

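The files hold deposited intensities on a linear scale, 1 per probe set in each of 29 arrays, normalized by the authors; per the submitters' processing notes GCOS was used, and its version and the normalization are not given in the sources used here. No further normalization was applied. The array has 54675 probe sets with 62 controls; 41091 carried 1 gene symbol, 1801 several and 11721 none, and 41037 of the first were matched to the RefSeq table (GRCh38.p14).

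Tests used log2(intensity + 16), which makes the changes of dim probe sets smaller. The 27307 probe sets with a mean at or above the median were fitted with limma 3.58.1 (R 4.3.3), a mean per group, empirical Bayes with a mean-variance trend and 19 residual degrees of freedom. Tests are two-sided. The script was tested on simulated data. Figures were drawn with matplotlib 3.10.9.

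Members and gene lists were chosen with earlier results of these data known. All member probe sets are named. Other genes of the pathway, p53 targets and genes of similar course stand on their tested probe set of highest mean level. Of the other pathway lists up to 2 highest and 2 lowest called genes at 1000 nM are named. For DDB2 and XPC the 3 genes of most similar course are named. The labels speak of triplicate cultures, so p-values measure the spread between cultures of 1 line. The number of arrays limits precision. Alternatives were leaving out arrays, normalization, offset, level filter, samples fitted, variance model, mean over probe sets, a 3′ to 5′ covariate and the replicate number as a block. Same-numbered arrays did not deviate together: 3 of 26 pairs correlated over 0.1 (-0.516 to 0.214). Detection calls were not used.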

Additional observations from a re-analysis of the deposited data

How the results depend on the processing

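Of 1433 single values recomputed, 1317 kept their direction and their side of the threshold, 70 lost a call, 23 gained one and 23 changed sign, 2 of them called before and 21 called in neither fit. Leaving out 1 array at a time gave 7 to 9 called member probe sets at 1000 nM, 6 to 10 at 500 nM, 2 in every case at 100 nM, 0 to 2 calls summed over the 6 doses of 0.1 to 50 nM, 7 to 8 slopes, 8 to 11 by the F test and 5 to 7 between the top doses. The 3′ to 5′ covariate took the 1000 nM count to 5 and the slopes to 0. With it XPA at 1000 nM (0.0281, adjusted p = 0.906), the ERCC4 slope (0.0187, adjusted p = 0.895) and the XPA slope (0.0698, adjusted p = 0.43) changed sign without a call. The XPA slope was 0.0195 without 500 and 1000 nM, and the ERCC5 slope -0.0277 when linear in dose. Leaving out arrays, values called in neither fit changed sign within these ranges: DDB1 (-0.118 to 0.129) and RAD23B 201222_s_at (-0.111 to 0.0130) between the top doses, RAD23B 201222_s_at (-0.0490 to 0.0262), CETN2 (-0.000862 to 0.0677) and ERCC4 (-0.0565 to 0.144) at 100 nM, ERCC1 228131_at (-0.0213 to 0.0753) and ERCC4 (-0.0474 to 0.180) at 500 nM, ERCC1 203719_at (-0.00560 to 0.112) and 203720_s_at (-0.00104 to 0.0950) at 1000 nM, and the ERCC5 slope (-0.000564 to 0.0173). XPA at 500 nM ran from -0.00762 to 0.293, where it was called. Dropping the 500 and 1000 nM arrays left 1 slope called, and a fit with no mean-variance trend left 1 call at low doses. The first also had fewer arrays and a shorter dose range, and the cause was not tested for either. With the replicate number as a block, a number that did not pair the arrays, 9 member probe sets were called at 1000 nM, 7 at 500 nM, 2 at 100 nM and 7 slopes. Median centring, quantile normalization and offsets of 1 and 64 changed no count at 1000, 500 or 100 nM. Leaving out an array of 0.5 nM left 1, assumed to vary like the other groups. Precision was lowest for ERCC4, whose residual SD was highest.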
